A study of Mus musculus with 32 samples.

Results

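A set of 8 genes used to recognise blood stem cells was followed across the marrow hierarchy in young and aged mice: Procr, Fgd5, Ctnnal1, Esam, Tek, Robo4, Ly6a and Cd34. They were chosen by symbol from the 24421 genes of the count table, and all 8 of them were among the 14154 genes that passed the filter on low counts. RNA was reverse-transcribed, amplified and sequenced from 8 sorted fractions of female C57BL/6 bone marrow at 10 weeks (young) and 20 months (aged), with 2 libraries for each of 16 groups and 32 in all. Hematopoietic stem cells (HSCs) and the multipotent progenitors MPP1, MPP2, MPP3 and MPP4 were lineage-negative, IL-7 receptor-negative, Sca-1+ and c-Kit+ cells. HSCs were further gated as CD34-, CD150+, CD48- and Flt3-, and MPP1 differed from them by being CD34+. MPP2 were CD34+, CD150+, CD48+ and Flt3-, MPP3 were CD34+, CD150-, CD48+ and Flt3-, and MPP4 were CD34+, CD150-, CD48+ and Flt3+. Granulocyte-macrophage progenitors (GMPs) and megakaryocyte-erythrocyte progenitors (MEPs) were Sca-1- and c-Kit+, with FcγR and CD34 both present on GMPs and both absent from MEPs. Common lymphoid progenitors (CLPs) were IL-7 receptor-positive cells with low Sca-1 and low c-Kit. No group carried a transgene, so the reporter loci among the 8 genes were read at their own transcripts. The mice of each age were pooled before the sort, and although the study also calls its duplicates biologically independent, no label ties them to separate animals, so errors and p-values may cover sorting and library preparation only.

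HSCs are rare cells that keep the blood system supplied, and they share many surface proteins with the endothelium that lines blood vessels, from which they arise in the embryo. Procr encodes the endothelial protein C receptor (EPCR), Esam an adhesion molecule of endothelial junctions, Tek the angiopoietin receptor Tie2, and Robo4 a Roundabout-family receptor. Fgd5 encodes an exchange factor for the GTPase Cdc42 and Ctnnal1 the catenin-like protein alpha-catulin. These loci have both been used to build fluorescent reporter mice for HSCs. Ly6a encodes the GPI-anchored protein Sca-1, which interferon induces, and Cd34 a sialomucin. Sca-1 and CD34 were antigens of the gates used here. A difference in Ly6a or Cd34 between fractions that were gated apart by that antigen describes the sort. HSCs and MPPs were all gated as Sca-1+, and MPP1 to MPP4 all as CD34+. Between ages, a difference in Ly6a, or in Cd34 outside CLPs, cannot be told apart from one in where the gates were set. The stain described for CLPs did not include CD34.

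In GRCm38 (GENCODE annotation), Procr lies on the plus strand at chr2:155751117-155755471, Fgd5 on the plus strand at chr6:91978878-92076004 and Ctnnal1 on the minus strand at chr4:56810935-56865188. Tek lies on the plus strand at chr4:94739289-94874976, Ly6a on the minus strand at chr15:74994877-74998031 and Cd34 on the plus strand at chr1:194938819-194961279. Robo4 (chr9:37401897-37415115) and Esam (chr9:37528078-37538319) are both on the plus strand and are 113.0 kb apart. All 8 are protein-coding, and counts cover their exons. An antisense gene, Gm16897, shares 148 exon bases with Cd34, or 2.03% of the exons of Cd34. No use of strand was stated for the counts, so reads of that stretch cannot be assigned to one of the pair. Ly6a belongs to a family of similar genes, and reads that match several members are an uncertain part of its count.

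RefSeq promoter sequences (GRCm38.p6, windows of 300 bases around the start site of the RefSeq gene) matched 6 of the 8 genes, all but Esam and Ly6a. The 4 printed here belong to Procr, Fgd5, Tek and Robo4, the genes with lower values in aged MPPs. Capitals mark matches to 4 motifs searched on both strands. These were CCGGAAG for ETS factors, AGATAA for the GATA family, TGACTCA for AP-1 and CAGCTG for E-box factors. They are given 5′ to 3′ on the strand of the gene, at chr2:155750967-155751266 for Procr, chr6:91978715-91979014 for Fgd5, chr4:94739039-94739338 for Tek and chr9:37401722-37402021 for Robo4.
Procr: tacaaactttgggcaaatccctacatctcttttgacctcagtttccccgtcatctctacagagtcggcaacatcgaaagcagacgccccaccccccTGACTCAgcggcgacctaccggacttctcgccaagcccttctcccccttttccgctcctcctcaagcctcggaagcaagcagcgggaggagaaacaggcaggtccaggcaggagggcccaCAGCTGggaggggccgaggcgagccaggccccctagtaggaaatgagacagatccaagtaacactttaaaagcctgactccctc
Fgd5: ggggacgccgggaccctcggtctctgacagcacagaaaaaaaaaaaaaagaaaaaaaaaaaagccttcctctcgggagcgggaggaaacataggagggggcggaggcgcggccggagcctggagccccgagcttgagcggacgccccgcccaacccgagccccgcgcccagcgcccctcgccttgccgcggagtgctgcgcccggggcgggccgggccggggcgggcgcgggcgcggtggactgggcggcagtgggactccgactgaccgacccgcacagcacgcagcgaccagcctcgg
Tek: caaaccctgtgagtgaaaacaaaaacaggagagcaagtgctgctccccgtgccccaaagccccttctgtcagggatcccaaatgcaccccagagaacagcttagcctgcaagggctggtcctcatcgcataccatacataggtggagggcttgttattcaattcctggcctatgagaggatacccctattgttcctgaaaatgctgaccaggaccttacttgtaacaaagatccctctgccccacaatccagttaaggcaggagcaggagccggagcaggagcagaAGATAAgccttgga
Robo4: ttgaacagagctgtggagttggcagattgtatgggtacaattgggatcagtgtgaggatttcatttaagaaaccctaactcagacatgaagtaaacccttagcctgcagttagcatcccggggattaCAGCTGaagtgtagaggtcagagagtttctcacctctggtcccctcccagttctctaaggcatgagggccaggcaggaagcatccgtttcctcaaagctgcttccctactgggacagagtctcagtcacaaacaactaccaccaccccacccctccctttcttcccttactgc
The Procr window held an AP-1 match at -154 and an E-box match at -34 from the start site, the Robo4 window an E-box match at -123, and the Tek window a GATA match at +37. The Fgd5 window held none of the 4 motifs, nor did those of Ctnnal1 and Cd34, and no match overlapped another. Of 32851 mouse promoter windows of this length, 8.86% held the ETS motif, 11.2% the GATA motif, 5.2% the AP-1 motif and 16.3% the E-box. No motif of this set was shared by all 4 genes. The GC content was 71.3% in the Fgd5 window, 58.3% in that of Procr, 52.0% in that of Tek and 50.3% in that of Robo4.

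Levels are given as CPM, the count scaled to the library total, as mean ± SD over 2 libraries. The totals were 11237384 to 17723245, and 3 counts, the limit that a count of 0 allows, came to 0.169 to 0.267 CPM. Reads without molecular identifiers are not independent molecules, so this limit covers counting error alone. On a scale per kilobase of exon, which allows genes to be compared, Ly6a had the highest level in young HSCs at 266 CPM per kb. Esam followed at 90.2 and Procr at 88.8, then Cd34 at 30.4, Fgd5 at 19.2, Tek at 18.5, Robo4 at 16.3 and Ctnnal1 at 7.87 CPM per kb. Of the 8 genes, 7 had their highest mean CPM in HSCs at both ages, the exception being Cd34, which is selected against in the HSC gate.

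**Figure D1:**
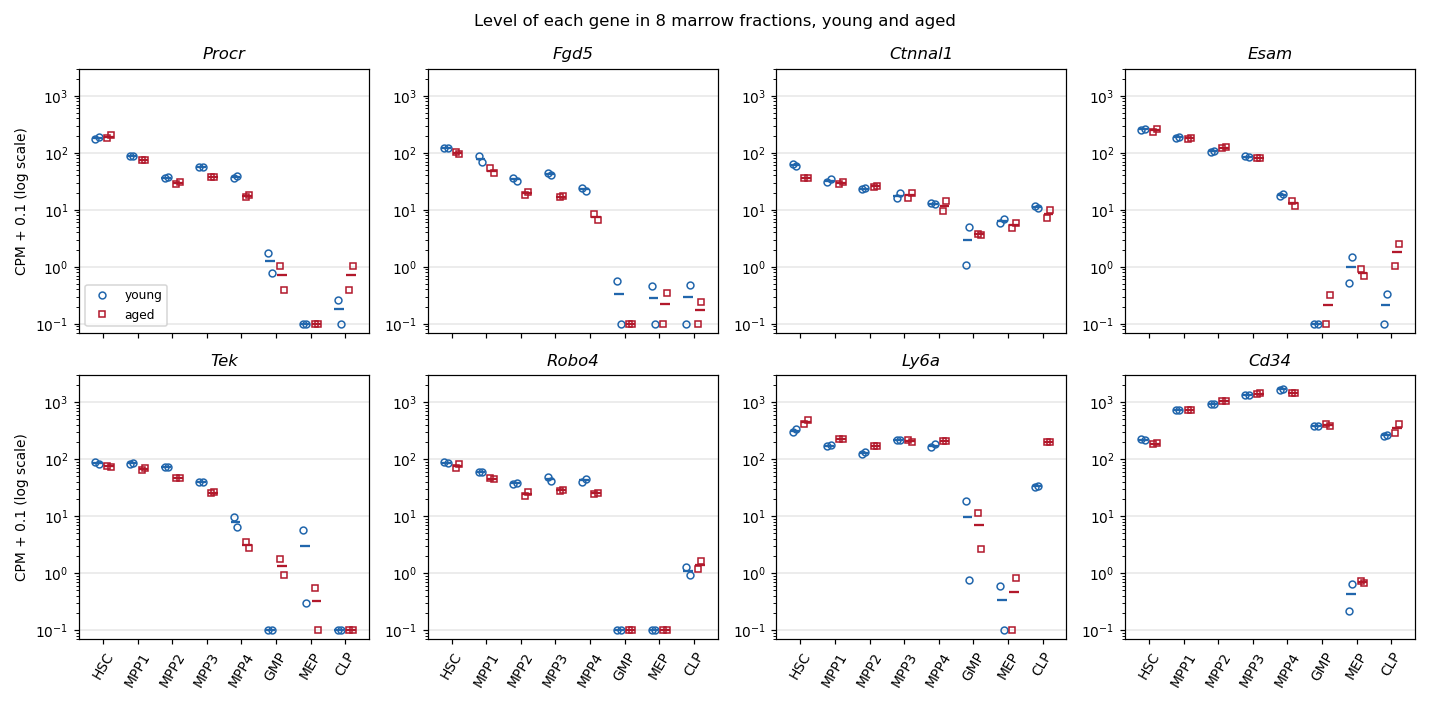
CPM + 0.1 on a log axis for each gene (panels) in 8 fractions, with 1 point per library (circles young, squares aged) and a bar at the mean of each pair. Points at 0.1 are libraries listed at 0. In young MPP4, Esam is at 6.92% and Tek at 9.11% of its HSC level, and Ly6a in CLPs is at 33.6 CPM in young and 201 in aged cells.

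Procr, the surface receptor EPCR, was at 180 ± 12.1 CPM in young HSCs and fell stepwise to 87.4 ± 1.99 in MPP1, 57.0 ± 0.354 in MPP3, 37.3 ± 1.46 in MPP4 and 36.6 ± 1.11 in MPP2. MPP4 and MPP2 overlapped. Young GMPs held 1.14 ± 0.66 CPM, and young MEPs and CLPs had 0 to 2 counts a library. In aged cells the order was HSC, MPP1, MPP3, MPP2 and MPP4, with no overlap between these neighbours.

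The reporter gene Fgd5 ran from 121 ± 2.57 CPM in young HSCs through 78.8 ± 14.9 in MPP1, 42.6 ± 2.22 in MPP3 and 34.2 ± 2.98 in MPP2 to 22.6 ± 1.52 in MPP4. It had at most 8 counts in any GMP, MEP or CLP library. Ctnnal1, the other reporter gene, reached 60.3 ± 3.6 CPM in young HSCs and was also present further down: 11.1 ± 0.718 CPM remained in young CLPs and 6.31 ± 0.796 in young MEPs. Its duplicates in young GMPs were far apart, at 17 and 85 counts.

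Esam and Tek were low in MPP4 and higher in MPP1 to MPP3. Young MPP3 held 85.1 ± 1.15 CPM of Esam and young MPP4 17.9 ± 1.22, against 259 ± 5.63 in HSCs. Tek was at 85.1 ± 2.26 CPM in young MPP1 and 86.9 ± 5.5 CPM in young HSCs, whose libraries overlapped, and at 74.0 ± 0.201 in MPP2, 40.1 ± 0.581 in MPP3 and 7.92 ± 2.25 in MPP4. Both genes were at 0 counts in both young GMP libraries. The young MEP duplicates held 93 and 3 counts of Tek, so its mean there rests on 1 library.

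Robo4 ranged among young HSCs and MPPs from 86.6 ± 1.78 CPM in young HSCs to 37.7 ± 1.61 in MPP2, with 46.0 ± 5.45 in MPP3 and 43.1 ± 4.09 in MPP4, which overlapped. It was at 0 counts in all 8 GMP and MEP libraries and at 11 to 22 counts in the 4 CLP libraries. Young MPP4 thus held 49.7% of the HSC level of Robo4, against 6.92% for Esam and 9.11% for Tek.

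Among the gate genes, Ly6a was at 320 ± 22.9 CPM in young HSCs, 216 ± 2.26 in MPP3, 174 ± 17.4 in MPP4, 173 ± 5.33 in MPP1 and 129 ± 8.53 in MPP2. The Sca-1- GMPs had 319 and 12 counts in the young duplicates and 148 and 34 in the aged ones, and no MEP library had more than 9. Cd34 ran the other way, from 222 ± 5.73 CPM in young HSCs to 725 ± 0.0189 in MPP1 and 944 ± 8.48 in MPP2, then 1363 ± 11.3 in MPP3 and 1689 ± 42.6 in MPP4. The CD34- MEPs had 2 to 8 counts of Cd34 in each of 4 libraries, while the CD34- HSCs held 189 ± 2.29 CPM (aged) and 222 ± 5.73 CPM (young) of its RNA.

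The steps between neighbouring fractions were tested with the quasi-likelihood test of edgeR on all 32 libraries, and a gene is said to be called at an adjusted p under 0.01. Ly6a and Cd34 are counted among the 8 genes in these steps. Where a gate set them, as for Cd34 from CD34- HSCs to CD34+ MPP1, their calls describe the sort. From young HSCs to MPP1, 3 of the 8 genes were called, against 14.8% of all genes tested. Procr fell by 1.07 (log2, SE 0.16, adjusted p 6.30e-05) and Robo4 by 0.56 (SE 0.12, adjusted p 0.00234), and Cd34 rose by 1.68. DESeq2 called 6 genes for this step, adding Esam, Fgd5 and Ctnnal1, and the call of Robo4 was lost without any 1 of the 4 libraries compared (adjusted p up to 0.0335). From MPP1 the 3 branches share the MPP1 libraries. Procr, Fgd5, Esam and Robo4 were called lower in young MPP2 (6.82% of all genes called), Esam lower and Cd34 higher in MPP3 (5.49%), and 5 genes lower with Cd34 higher in MPP4 (12.9%). In young MPP4 Esam fell by 3.31 and Tek fell by 3.35, while Robo4 was at -0.42 (adjusted p 0.0201) and Ly6a at 0.07. DESeq2 called 5, 4 and 7 genes in MPP2, MPP3 and MPP4. The calls of Esam and Robo4 in MPP2 were lost without any 1 of the 4 libraries compared (adjusted p up to 0.0535 and 0.0369), that of Fgd5 there without young MPP1 replicate 1 or either young MPP2 library (up to 0.0572), and that of Ctnnal1 in MPP4 without young MPP1 replicate 2 or either young MPP4 library (up to 0.0275).

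A fit of the 20 HSC and MPP libraries alone, chosen after the values had been seen, called more genes at each of these young steps. It called 7 from HSC to MPP1 (20% of all genes called), 6 from MPP1 to MPP2 (11.6%), 7 to MPP3 (9.31%) and 7 to MPP4 (18.5%). The aged steps gave 6 (30.2%), 5 (11.1%), 7 (14.2%) and 7 (26%) in the same order.

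Past the MPPs, all 8 genes were called lower in young MEPs than in MPP2 (64% of all genes called) and in young GMPs than in MPP3 (58%), and 7 in young CLPs than in MPP4 (41.8%). These counts include calls that describe the sort: Ly6a in the Sca-1- MEPs and GMPs and the Sca-1-low CLPs, and Cd34 in the CD34- MEPs. Ctnnal1 was the exception in CLPs, with a log2 difference of -0.04 (SE 0.30). In fits of the 4 libraries of a step alone, the falls of Ctnnal1 and Ly6a into young GMPs had adjusted p-values of 0.0274 and 0.0143, and DESeq2 gave 0.0286 for Ly6a from young MPP4 to CLP, a call also lost without either young CLP library (up to 0.0121). Where a fraction had no counts, the fall is a lower bound against 3 counts a library. Esam was at least 498-fold lower in young GMPs than in young MPP3, Robo4 at least 269-fold and Tek at least 235-fold. In young MEPs, Robo4 was at least 194-fold and Procr at least 188-fold lower than in MPP2.

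The same steps in aged cells gave 4 calls from HSC to MPP1 (22.9% of all genes called), 4 to MPP2 (5.55%), 5 to MPP3 (8.25%), 7 to MPP4 (19.5%), 8 to MEP (60.5%), 8 to GMP (43.6%) and 6 to CLP (40.5%). As in young cells, Ly6a and Cd34 are counted here, and their calls describe the sort where a gate set them. Fgd5 differed by -1.04 from aged HSC to MPP1 (SE 0.24, adjusted p 0.00187), a call lost without any 1 of the 4 libraries compared (up to 0.0551), and by -0.64 (adjusted p 0.0512) in young cells. The fit of 20 libraries called it at both ages, and the difference between ages was not called (-0.40, SE 0.33, adjusted p 0.817). Fgd5 and Cd34 from aged MPP1 to MPP2, and Procr and Robo4 to MPP3, lost their calls without any 1 of the 4 libraries compared (up to 0.0496). Fgd5 to aged MPP3 lost its call without aged MPP1 replicate 1 (0.0118), and Ctnnal1 to aged MPP4 without either aged MPP1 library or aged MPP4 replicate 1 (up to 0.0527). Tek from aged MPP4 to CLP lost its call without either aged CLP library (up to 0.011). Ly6a was not called from aged MPP4 to CLP, at 0.03 (SE 0.46), against a fall of 2.22 in young cells (adjusted p 8.73e-04), and the difference between these steps was not tested as such. Whether the 4 steps among HSCs and MPPs differed between ages was tested after the values were seen. In the fit of 32 libraries 0 of 8 genes was called by edgeR in each of the 4. Of all genes, 0.12% were called for HSC to MPP1, 0.0353% for MPP1 to MPP2, 0.198% for MPP1 to MPP3 and 0.24% for MPP1 to MPP4. With so few calls among all genes, 0 of 8 says little about these genes. DESeq2 was not run for these contrasts. At an unadjusted p under 0.05 there were 0 genes for HSC to MPP1, MPP1 to MPP2 and MPP1 to MPP3, and 2 (Fgd5 and Procr) for MPP1 to MPP4.

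Against age within a fraction, 9 of 64 tests were called in the fit of 32 libraries, 6 of them lower in aged MPPs and 3 higher in aged CLPs. The share of all genes called was lowest in HSCs, at 5.4%, and in the MPPs it was 6.8% (MPP1), 7.81% (MPP2), 13.9% (MPP3) and 16.6% (MPP4). CLPs had 10.4% called, GMPs 18.9% and MEPs 20.8%. The median log2 difference of the 8 genes was -0.53 in MPP4, -0.28 in MPP3 and -0.03 in MPP2, with -0.15 in both HSCs and MPP1 and 0.42 in CLPs. Over all genes tested the median was between -0.04 and 0.02 in these 6 fractions. RNA from a sorted population was measured, so fewer cells of one kind and less RNA per cell cannot be told apart.

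Robo4 was called lower in 3 MPP fractions. In MPP4 its level was 40.2 and 45.9 CPM in the young libraries and 25 and 25.3 in the aged ones, a log2 difference of -0.69 (SE 0.12, adjusted p 5.29e-04). In MPP3 it was 49.8 and 42.1 CPM in young and 27.3 and 29.3 in aged cells (-0.65, SE 0.12, adjusted p 9.45e-04). In MPP2 it was 36.6 and 38.9 against 22.6 and 26.2 CPM (-0.58, SE 0.13, adjusted p 0.0046). The aged libraries lay below the young ones in each of these pairs. The call in MPP2 was lost without any 1 of its 4 libraries (adjusted p up to 0.0826), and that in MPP3 without young replicate 1 or aged replicate 1 (up to 0.0262). With the 4 MPP3 libraries fitted on their own, the adjusted p was 0.0131. The call in MPP4 held in all 32 fits that left out a library.

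The exchange factor gene Fgd5 had the largest difference among the 6 calls in MPPs. Its level in MPP4 was 23.6 and 21.5 CPM in young and 8.38 and 6.64 in aged cells, a log2 difference of -1.50 (SE 0.28, adjusted p 4.31e-04). In MPP3 it was 44.2 and 41.0 CPM in young and 16.8 and 17 in aged cells (-1.29, SE 0.25, adjusted p 9.06e-04). The difference was -0.76 (adjusted p 0.0457) in MPP2 and -0.67 (adjusted p 0.0712) in MPP1. The call in MPP4 was lost without aged replicate 2 (adjusted p 0.015), and that in MPP3 without young replicate 1 or either aged library (up to 0.0137).

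Procr was called lower in MPP4, where it had 36.3 and 38.3 CPM in young and 16.7 and 17.7 in aged cells (-1.03, SE 0.18, adjusted p 2.57e-04). In MPP3 it had 56.7 and 57.2 CPM in young and 38.1 and 37.6 in aged cells (-0.54, SE 0.17, adjusted p 0.0248). The call in MPP4 held in all 32 fits that left out a library. In HSCs Procr had 172 and 189 CPM in young and 180 and 201 in aged libraries, which overlapped (0.12, SE 0.16, adjusted p 0.72).

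Tek, the angiopoietin receptor, was not called in any fraction by the fit of 32 libraries. It had 9.51 and 6.33 CPM in young MPP4 and 3.48 and 2.67 in aged MPP4 (-1.29, SE 0.52, adjusted p 0.0807), and 73.8 and 74.1 against 47.0 and 47.6 CPM in MPP2 (-0.59, SE 0.36, adjusted p 0.308). Both aged libraries lay below both young ones in all 5 HSC and MPP fractions for Fgd5, Tek and Robo4. The same held for 10.6% of all genes tested.

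The 16 groups share 1 estimate of the spread per gene, and the duplicates of young GMPs and MEPs were far apart for Ly6a and Tek. The fit of the 20 HSC and MPP libraries alone, chosen after these values had been seen, called 20 of 40 tests between ages, against 6 of 40 in the fit of 32 libraries, and 12 to 21 when any 1 of the 20 libraries was left out. The share of all genes called in this fit was 22.1% in MPP4, 19.2% in MPP3, 12% in MPP2, 10.7% in MPP1 and 9.3% in HSCs. The 6 calls of the larger fit were all among the 20.

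In that fit Tek was called lower in aged MPP2 (-0.59, SE 0.11, adjusted p 0.00163), MPP3 (-0.56, SE 0.12, adjusted p 0.00204) and MPP4 (-1.30, SE 0.17, adjusted p 4.41e-05). Procr was called lower in MPP3 and MPP4, Fgd5 in all 4 MPPs, Robo4 in MPP2 to MPP4 and Esam in MPP4. Esam had 17 and 18.8 CPM in young and 14.2 and 11.6 in aged MPP4, and this call was kept in 3 of 20 fits that left out a library. The calls of Procr, Fgd5 and Robo4 in MPP3 and of Procr, Fgd5, Tek and Robo4 in MPP4 held in all 20 such fits. The calls of Tek in MPP2 and MPP3 were each lost without any 1 of the 4 libraries compared (adjusted p up to 0.0218 and 0.018). That of Robo4 in MPP2 was lost without 3 of these 4, both young libraries and aged replicate 1 (up to 0.0403). Fgd5 lost its call in MPP1 without young replicate 1 or aged replicate 2 (up to 0.0448), and in MPP2 without young replicate 1 or aged replicate 1 (up to 0.0223).

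**Figure D2:**
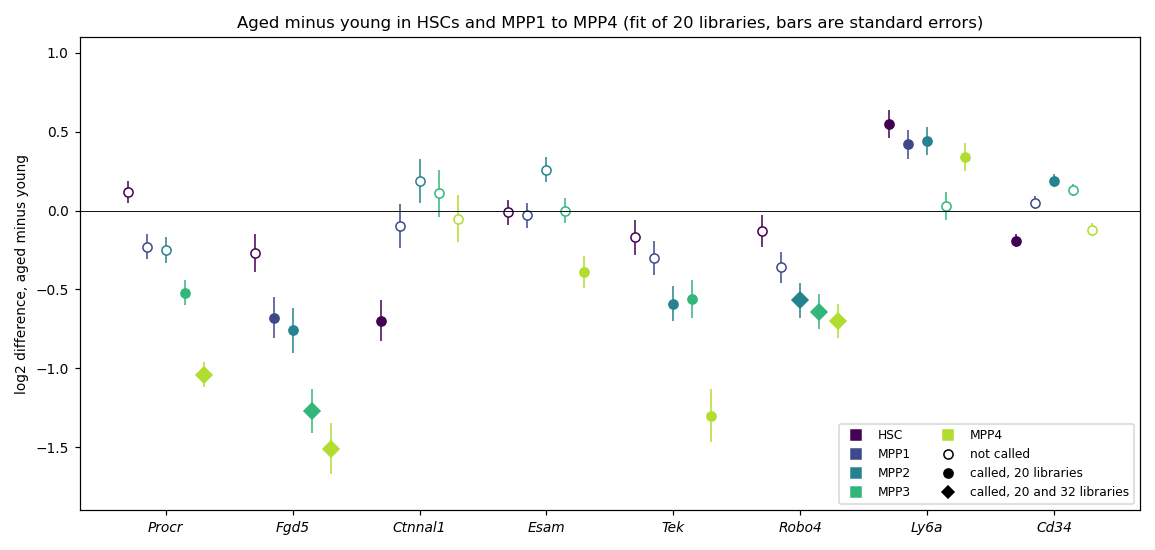
Log2 difference, aged minus young, of each gene in HSCs and MPP1 to MPP4 from the fit of 20 libraries, which was chosen after the values were seen, with bars of 1 standard error. Filled marks are called there and diamonds in the fit of 32 libraries too. Fgd5 reaches -1.51 and Tek -1.30 in MPP4, while Ly6a is called above 0 in HSCs, MPP1, MPP2 and MPP4 and lies at 0.03 in MPP3.

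The gate gene Ly6a had higher values in most aged fractions. Sca-1 was part of every gate, so these values cannot be told apart from a difference in where the gates were set. It had 304 and 336 CPM in young and 425 and 487 in aged HSCs, and 170 and 177 against 225 and 228 CPM in MPP1, with no overlap. The fit of 20 libraries called it higher in aged HSCs (0.55, SE 0.09, adjusted p 3.95e-04), MPP1 (0.42, adjusted p 0.00347), MPP2 (0.44, adjusted p 0.00232) and MPP4 (0.34, adjusted p 0.00684), but the fit of 32 libraries in none of these (adjusted p 0.521 to 0.648). In MPP3 the libraries overlapped. The call in HSCs was lost without young replicate 1 (adjusted p 0.013), those in MPP1 and MPP2 without any 1 of the 4 libraries compared (up to 0.0371 and 0.0493), and that in MPP4 was kept in 8 of 20 fits that left out a library (up to 0.0909).

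In HSCs, 0 of the 8 genes was called by edgeR on 32 libraries (5.4% of all genes called). There, 1 (Ctnnal1) had an unadjusted p under 0.05 and DESeq2 called 0. In MPP1, where 0 was called as well (6.8%), 2 (Robo4 and Fgd5) had an unadjusted p under 0.05 and DESeq2 called Fgd5. Ctnnal1 had 62.8 and 57.7 CPM in young and 36.4 and 35.7 in aged HSCs (-0.70, SE 0.27, adjusted p 0.102), and it was called lower in the fit of 20 libraries (SE 0.13, adjusted p 0.00195), a call lost without young replicate 1 (0.0185). In MPP1 to MPP4 its libraries overlapped between ages or differed by at most 0.19 on the log2 scale. Cd34 was called lower in aged HSCs by that fit at -0.19 (SE 0.04, adjusted p 0.0092), a call kept in 4 of 20 fits that left out a library, and higher in aged MPP2 at 0.19 (adjusted p 0.00531), a call lost without any 1 of the 4 libraries compared (up to 0.0473). Esam differed by -0.01 in HSCs (SE 0.08), with 255 and 263 CPM in young and 234 and 264 in aged libraries.

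Whether the age effect in HSCs differed from the mean effect over MPP1 to MPP4 was tested in both fits. The fit of 32 libraries called 0 of 8 genes (3.01% of all genes), with 4 at an unadjusted p under 0.05 (Robo4, Fgd5, Ctnnal1 and Procr) and 3 called by DESeq2 (Robo4, Fgd5 and Procr). The fit of 20 libraries called 4 (6.64% of all genes). The effect was higher in HSCs than in MPPs for Procr by 0.63 (SE 0.08, adjusted p 1.72e-04) and for Fgd5 by 0.79 (SE 0.14, adjusted p 0.00201), and lower for Ctnnal1, at -0.74 (SE 0.15, adjusted p 0.00458) and Cd34, at -0.25 (SE 0.05, adjusted p 0.00392). The Procr call held in all 20 fits that left out a library, those of Fgd5 and Cd34 were lost without either young HSC library (up to 0.0171 and 0.0181), and that of Ctnnal1 was kept in 16 of 20 (up to 0.0214). For the 4 steps of the hierarchy this fit called 1 difference between ages, Procr from MPP1 to MPP4 at -0.81 (SE 0.11, adjusted p 0.00109, 0.846% of all genes called). It was lost without aged MPP4 replicate 1, at an adjusted p of 0.0101.

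Endothelial genes were read beside these results, because several of the 8 genes are also expressed by vessels. Of 19 such genes, 15 were tested. Their summed level was 660 to 663 CPM in young and 493 to 498 in aged MPP3, 680 to 708 and 535 to 555 in MPP4, 516 to 540 and 466 to 480 in MPP2, and 784 to 818 and 804 to 824 in HSCs. Young MPP1 had a sum of 660 to 673 CPM and aged MPP1 one of 565 to 588. The members of the list with the highest mean CPM were Eng, Egfl7, Pecam1 and Erg, which stem and progenitor cells express as well. The median log2 difference of the 15 was -1.50 in MPP3, -1.11 in MPP4, -1.02 in MPP2, -0.05 in MPP1 and 0.20 in HSCs. Genes near the floor may weigh in these medians, as 5 and 6 of the 19 were at 0 counts in the aged MPP3 libraries. In aged MPP3, 4 of the 15 were called lower and none higher: Eng, Kdr, Plvap and Stab2 (13.9% of all genes called). Emcn and Eng were called lower in aged MPP4 (16.6%), Plvap and Stab2 in aged MPP2 (7.81%), and 0 of the 15 by edgeR in MPP1 (6.8%). In aged HSCs 1 of the 15 was called higher and 0 lower (5.4%). Stab2, a scavenger receptor of sinusoids, was at 12.9 CPM in young and 0.36 in aged MPP3, and Kdr, the VEGF receptor, at 8.89 and 1.05. The vessel cadherin Cdh5 was at 0.609 CPM or below in every HSC and MPP group, and Lyve1 at 0.205 or below. Esam, which vessels also express, was at 85.9 and 84.3 CPM in young and 81.4 and 81.3 in aged MPP3. The part of vessel RNA in the lower values of Procr, Fgd5, Tek and Robo4 was not tested. Kdr, Plvap, Stab2, Emcn, Cdh5 and Lyve1 were named after their values were seen.

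Erythroid genes were called lower in 4, 5 and 1 of 7 in aged MPP2, MPP3 and MPP4, and platelet genes in 3, 3 and 2 of 5. Myeloid genes were called lower in 5, 6 and 1 of 10 in the same order, with 2 higher in MPP4. Of all genes, 7.81%, 13.9% and 16.6% were called in these fractions. In aged HSCs 5 of the 10 myeloid genes and 4 of 6 basophil and mast cell genes were called higher (5.4% of all genes called). The basophil and mast cell genes summed to 1.05 to 1.78 CPM in young and 11.2 to 18.7 in aged HSC libraries. The part of these lists in the results was not tested either. Of 24 other genes known from HSCs, 6 were called lower and 1 higher in aged MPP3 (13.9% of all genes called) and 7 lower and 1 higher in aged MPP4 (16.6%). In MPP1 2 were called higher and 2 lower (6.8%), in MPP2 3 and 2 (7.81%), and in HSCs 5 and 0 (5.4%). The transcription factor gene Hlf fell by 0.92 in MPP3 (adjusted p 2.55e-04) and fell by 1.37 in MPP4 (adjusted p 2.49e-06). The median log2 difference over the 24 genes was -0.60 in MPP3, -0.58 in MPP4, -0.35 in MPP2, -0.20 in MPP1 and 0.16 in HSCs.

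Of 37 genes that encode ligands, partners and close relatives of the 8 proteins, 34 were tested. HSCs had 3 called higher and 0 lower (5.4% of all genes called), MPP1 had 1 and 2 (6.8%), MPP2 had 2 and 2 (7.81%), and MPP3 had 0 and 5 (13.9%). CLPs had 7 higher and 0 lower (10.4%), GMPs 1 and 5 (18.9%), and MEPs 2 and 12 (20.8%). In aged MPP4, 5 were called lower and 2 higher (16.6%). Angpt1, the ligand of Tie2, was at 424 and 438 CPM in young and 226 and 225 in aged MPP4 (-0.85, SE 0.19, adjusted p 0.00189), and Tie1, the partner receptor of Tie2, at 64.1 and 63.1 against 35.1 and 30.5 CPM (-0.87, SE 0.19, adjusted p 0.00181). Dok2, an adaptor of Tie2, was called lower in MPP1 to MPP4, by 0.47, 0.71, 0.68 and 0.98. In aged MEPs it was called lower at -1.91. In aged MPP4 Tek itself was called in the fit of 20 libraries and not in that of 32.

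Among junctional adhesion genes, the class to which Esam belongs, Jam3 was called lower in all 4 aged MPPs, by 1.03, 1.21, 1.37 and 1.54, and Jam2 lower in MPP3 and MPP4. In HSCs Jam2 was called higher, at 31.3 and 31.8 CPM in young and 96.8 and 91.2 in aged libraries (1.62, SE 0.22, adjusted p 7.50e-05). Ly6e, a relative of Ly6a, was called higher in aged HSCs (0.70, adjusted p 6.56e-06), MPP1 (0.52), MPP2 (0.38), MPP4 (0.60) and CLPs (0.38). Cdc42, the GTPase that Fgd5 activates, was called lower in GMPs and MEPs, and Ctnnb1 (beta-catenin) in GMPs. Apart from Ly6e, Cdc42 and Ctnnb1, the partner genes given here were named after their values were seen.

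In CLPs 3 of the 8 genes were called higher with age (10.4% of all genes called). Ly6a was at 33.0 and 34.1 CPM in young and 204 and 199 in aged libraries (2.60, SE 0.51, adjusted p 9.82e-04), against 209 ± 0.799 CPM in aged MPP4. The call was lost without either young library (adjusted p up to 0.022) and under DESeq2 (2.61, SE 0.92, adjusted p 0.0241). CLPs were gated on low Sca-1, so this difference cannot be told apart from one in where that gate was set. Esam had 0 and 3 counts in young and 13 and 34 in aged libraries, a ratio of 14.4 of the summed counts scaled to their totals (exact 95% interval 4.63 to 72.2, counting error only). Its log2 difference of 3.76 (SE 0.74, adjusted p 0.0011) was lost as a call without young replicate 1 or aged replicate 2 and with the 4 CLP libraries fitted on their own (adjusted p 0.067), and ranged from 2.81 to 7.58. Cd34 had 260 and 266 CPM in young and 289 and 420 in aged libraries (0.44, SE 0.11, adjusted p 0.00698), and without aged replicate 2 the difference was 0.17 (adjusted p 0.25). This call held in 21 of 32 fits that left out a library, being lost without either young CLP library, aged CLP replicate 2 or any 1 of the aged MPP1, MPP2, MPP4 and GMP libraries, and it was not made when the 4 CLP libraries were fitted on their own (adjusted p 0.114). Procr had 2 and 0 counts in young and 4 and 13 in aged CLPs, a ratio of 7.8 (exact 95% interval 1.85 to 69.6), and was not called (adjusted p 0.0316).

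The age effect in CLPs minus the mean over MPP1 to MPP4 was called higher for Esam (3.81), Procr (3.36) and Ly6a (2.30), where 22.6% of all genes were called. Under DESeq2 the difference of Ly6a was 2.33 (adjusted p 0.06). These calls were lost for Ly6a without either young CLP library or aged replicate 1, for Esam without young replicate 1 or aged replicate 2 and for Procr without young replicate 2 or aged replicate 2, where the value of Procr ranged from 2.28 to 6.62 and that of Esam from 2.84 to 7.60. The same difference was called for 1 gene in GMPs, Tek (26.6% of all genes), and for 0 genes in MEPs by edgeR (24.8% of all genes), with 1 (Tek) at an unadjusted p under 0.05 and 0 called by DESeq2. Tek had 0 and 0 counts in young GMPs and 22 and 11 in aged GMPs, at least 7.29-fold higher, and this was not called within GMPs (adjusted p 0.0212). The difference held in 20 of 32 fits that left out a library, with an adjusted p of up to 0.0651, and was lost among others without any 1 of the 4 GMP libraries. By age inside GMPs and MEPs, 0 of the 8 genes was called in edgeR (18.9% and 20.8% of all genes called). At an unadjusted p under 0.05 there were 2 in GMPs (Tek and Fgd5) and 1 in MEPs (Tek), and DESeq2 called Tek in each. By edgeR Tek was higher in aged GMPs but lower in aged MEPs (-3.78, SE 1.06). The young MEP libraries held 93 and 3 counts of Tek and the aged ones 5 and 0. Without young MEP replicate 1 the difference was 0.03, so it rests on 1 library.

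**Figure D3:**
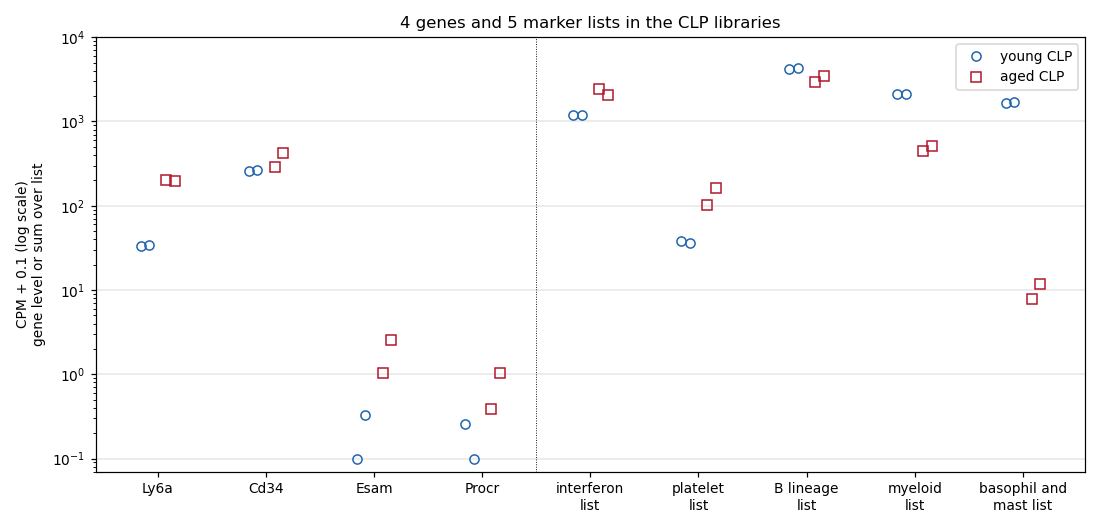
CPM + 0.1 on a log axis in the 2 young (circles) and 2 aged (squares) CLP libraries, for 4 of the genes and for the summed level of 5 marker lists. All 4 genes and the platelet and interferon lists are higher in both aged libraries, and the B lineage, myeloid and basophil lists lower. Esam and Procr are at low counts, and Procr was not called.

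Markers of other cells also differed between the CLP groups, where 10.4% of all genes were called. Platelet and megakaryocyte genes summed to 35.9 to 37.7 CPM in young and 103 to 161 in aged libraries, with 4 of 5 tested genes called higher: Pf4, Ppbp, Gp9 and Gp1bb. Pf4 was at 2.68 and 4.01 CPM in young and 33.7 and 74.3 in aged CLPs. Of the other HSC genes 6 were called higher and 2 lower. Gp1bb was named after its value was seen. Interferon-response genes summed to 1186 to 1207 CPM in young and 2056 to 2433 in aged CLPs, with 10 of 24 called higher and none lower, among them Bst2 by 0.88. In HSCs the list had 2 genes called higher and 0 lower (5.4% of all genes called), and MPP4 had 2 called each way (16.6%). MPP2 had 3 called lower (7.81%) and MPP3 had 6 (13.9%), with 0 higher in either, and MPP1 had 0 called by edgeR (6.8%). GMPs had 5 higher and 1 lower (18.9%) and MEPs 8 and 2 (20.8%). Ly6a was not called in either, but both were sorted as Sca-1- cells. Its SE by age was 0.66 in GMPs and 2.49 in MEPs, so the lack of a call there does not bear on interferon.

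Basophil and mast cell genes summed to 1666 to 1700 CPM in young and 7.64 to 11.8 in aged CLPs. All 6 were called lower (10.4% of all genes called). Myeloid genes summed to 2093 to 2140 against 445 to 507 CPM, with 9 of 10 called lower, and B lineage genes to 4236 to 4319 against 2918 to 3448 CPM, with 7 of 10 lower. T and NK genes were at 252 to 260 against 240 to 292 CPM, with 2 of 9 lower, and erythroid genes at 324 to 342 against 51.7 to 83.7 CPM, with 0 of 7 called. The part of these differences in the values of Ly6a, Esam and Cd34 was not tested.

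As a description of how the genes ran together, log2 CPM was correlated over the 10 group means of HSCs and MPPs. The means share fractions, libraries of like depth and the gates, so no p is given. Esam and Tek were alike (r = 0.966), and so were Procr and Fgd5 (0.953), Procr and Robo4 (0.941) and Fgd5 and Robo4 (0.927). Tek and Robo4 were less so (0.542), and Cd34 ran against the other 7 genes, from -0.904 with Procr to -0.643 with Tek. Over all 16 group means, MEPs included, the correlations of Cd34 were positive (0.342 to 0.824).

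**Figure D4:**
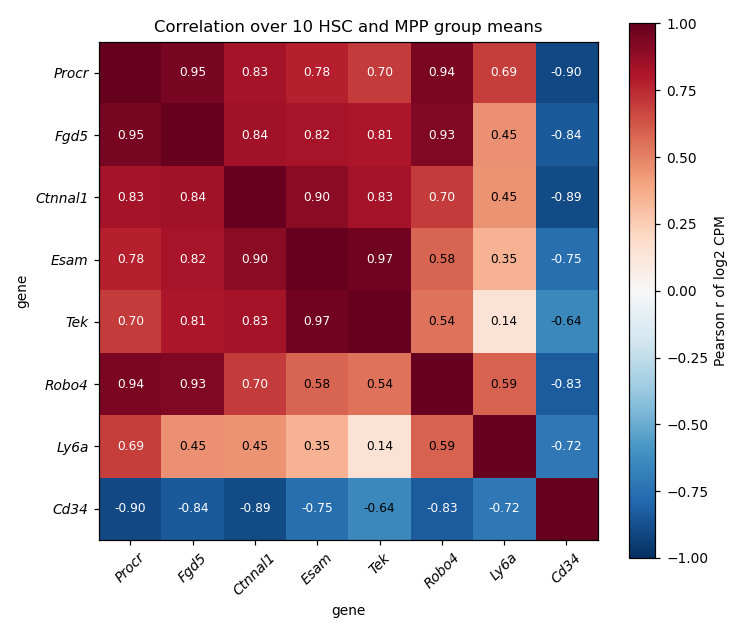
Pearson r of log2 CPM between each pair of genes over 10 group means (HSC and MPP1 to MPP4, young and aged), with red for positive and blue for negative values. Procr, Fgd5 and Robo4 are between 0.927 and 0.953 with each other, Esam and Tek are at 0.966, and Cd34 is negative with every other gene.

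Over the 16 group means, the 3 tested genes most like each member were found by Pearson r, and 23 of these 24 are given. They were Il7 (0.988), Fzd8 (0.987) and Hlf (0.980) for Procr, Ephb4 (0.997), Hspa12b (0.994) and E030011O05Rik (0.994) for Fgd5, and Fhl1 (0.973), Foxd2 (0.969) and D630039A03Rik (0.968) for Ctnnal1. For Esam Stard13 (0.983) and Mecom (0.976) were among them, for Tek they were Acacb (0.968), Shroom4 (0.963) and Gm973 (0.960), and for Robo4 Crispld1 (0.995), Ppp1r9a (0.993) and Myo5c (0.993). Ly6a ran most like Basp1 (0.990), Dtx3l (0.985) and Hhat (0.982), and Cd34 most like Gm1966 (0.984), Vav3 (0.980) and Tuba1a (0.977). Over the 32 libraries in place of the group means, Tuba1a had an r of 0.636 with Cd34, and for the other genes given it was 0.908 to 0.994. By that measure Il7 ranked 36 for Procr, Acacb 67 for Tek, and Dtx3l 50 and Hhat 105 for Ly6a, and Tuba1a ranked 2442 for Cd34. These genes were picked for the measure given.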

How the data were processed

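The authors amplified cDNA with the SMARTer Ultra Low Input kit, aligned single reads to mm10 with TopHat2 2.0.13 and Bowtie2 2.1.0 and took raw counts per gene with StringTie. The deposited counts of 32 libraries were used as they stand, and the authors' own comparison tables (fold changes and p-values) were not used. Genes were kept by the filterByExpr function of edgeR 4.0.16 over 16 groups (14154 of 24421), libraries were scaled by TMM (factors 0.807 to 1.11), and contrasts were tested in R 4.3.3 with the quasi-likelihood F-test of edgeR, 1 coefficient per group and 16 residual degrees of freedom. Its common dispersion came to 0.0127. P-values were adjusted by Benjamini-Hochberg over all genes within each of 26 contrasts and called under 0.01. DESeq2 1.42.0 was an alternative. CPM is a count scaled by the library total, which was 11237384 to 17723245. The scripts were tested on simulated data. The 8 genes, the gene lists and the tests were chosen with earlier results of these data known. The text names all 8 genes, the 3 genes most like each (some genes that the rule names are not reported here), and up to 4 genes of highest mean CPM from a list that moves with a result. Any other gene is said to be chosen after its values were seen.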

Additional observations from a re-analysis of the deposited data

Results flagged for a closer look

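The age effects of some genes differed between fractions by a test of the difference itself. In the fit of 32 libraries, the age effect in CLPs minus the mean over MPP1 to MPP4 was 3.81 for Esam (adjusted p 4.61e-04), 3.36 for Procr (adjusted p 0.00586) and 2.30 for Ly6a (adjusted p 0.00264), and that in GMPs was 8.03 for Tek (adjusted p 0.00702), whose fitted value depends on a group at 0 counts and is no bound. Of all genes, 22.6% were called in the CLP contrast and 26.6% in that of GMPs. Each of these calls was lost without some single CLP or GMP library, and DESeq2 did not call Ly6a. Esam and Procr had at most 34 counts in any CLP library. In the fit of 20 libraries, chosen after the values were seen, the age effect in HSCs minus that mean was 0.63 for Procr (adjusted p 1.72e-04), 0.79 for Fgd5 (adjusted p 0.00201), -0.74 for Ctnnal1 (adjusted p 0.00458) and -0.25 for Cd34 (adjusted p 0.00392). This contrast called 6.64% of all genes, and among these genes only the call of Procr held whichever library was left out. In the same fit the step from MPP1 to MPP4 differed between ages for Procr at -0.81 (adjusted p 0.00109, 0.846% of all genes called), a call lost without aged MPP4 replicate 1. With 2 libraries in each group, no group was large enough to look for a library that stood apart.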

How the results depend on the processing

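The 9 calls of age in 8 fractions became 17 in fits of only the groups compared, 14 with DESeq2 and 14 at an adjusted p under 0.05, and 6 to 14 when a library was left out. The 4 calls among differences of age effects became 8, 7 and 8 in the same order, and 2 to 6 with a library left out. The 6 calls of age in HSCs and MPPs became 16 with only the groups compared, 10 with DESeq2 and 20 with the 20 libraries (an alternative chosen after seeing the data), and the 0 calls for differences between steps became 1 there. The replicate block gave 9, 39, 42 and 4 calls for age, young steps, aged steps and differences against 9, 38, 42 and 4 without it. Same-numbered libraries of the 2 ages deviated from their group means with a correlation of -0.0557 to 0.0704 over all tested genes. This gave no sign of pairing by number, but it cannot exclude a batch that acts on some genes. Of 208 tests of the 8 genes, 8 had no count in either group. Over the other 200 and 7704 comparisons with an alternative, 7309 kept their direction and side of the threshold, 98 lost and 137 gained a call and 160 changed sign, in 32 results of which 0 were called. Of 93 called values, 66 were called under every alternative with which they were compared. Changes of sign were Esam by age in HSCs (0.00 with DESeq2, its size factors, and GC and length offsets) and MPP3 (0.00 with only the groups compared and with 20 libraries), and Ly6a by age in MPP3 (-0.03 with DESeq2 and its size factors, -0.02 with no filter, -0.17 with GC and length offsets). These offsets also turned Cd34 by age in GMPs (0.05), Ly6a from young MPP1 to MPP4 (-0.01) and Ctnnal1 from young MPP4 to CLP (0.03). With a library left out, age effects ranged from -0.15 to 0.07 for Esam and -0.01 to 0.20 for Procr in HSCs, -0.08 to 0.05 for Esam and -0.20 to 0.02 for Ctnnal1 in MPP1, -0.02 to 0.10 for Ly6a, -0.05 to 0.02 for Esam and -0.03 to 0.28 for Ctnnal1 in MPP3, -0.33 to 0.21 for Ctnnal1 in MPP4, and -1.95 to 3.27 for Ly6a, -0.07 to 0.06 for Cd34 -0.45 to 1.81 for Ctnnal1, -5.96 to 0.00 for Fgd5 and 0.00 to 4.84 for Esam in GMPs, -4.98 to 5.48 for Ly6a, -1.02 to 0.62 for Esam, -4.58 to 3.96 for Fgd5 and -8.51 to 0.03 for Tek in MEPs, and -4.52 to 3.19 for Fgd5 in CLPs. Steps ranged from -0.04 to 0.17 for Ly6a (young MPP1 to MPP4), -0.15 to 0.00 for Ctnnal1 (young MPP4 to CLP), -0.11 to 0.02 (aged MPP1 to MPP3) and -0.05 to 0.06 (aged MPP4 to CLP) for Ly6a, and the HSC difference of Esam from -0.12 to 0.11. Differences in GMPs ranged from -1.45 to 0.32 for Procr, -4.87 to 1.09 for Fgd5, -0.45 to 1.80 for Ctnnal1 and -2.27 to 2.99 for Ly6a, in MEPs from -3.55 to 5.01 for Fgd5, -0.99 to 0.64 for Esam, -7.84 to 0.70 for Tek and -5.31 to 5.16 for Ly6a, and in CLPs from -3.49 to 4.22 for Fgd5. The cause was not tested. With 11237384 to 17723245 counts a library, levels under 0.169 to 0.267 CPM could not be told from 0.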
